A study of Mus musculus with 21 samples.

Results

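Cells of the mouse melanoma line B16-F10 were held for 24 h at 1% oxygen in a sealed Billups_Rothenberg chamber, and their RNA was set against that of B16-F10 cells held at 21% oxygen. The hypoxia group had 3 arrays and the control group 2, which made 5 of the 21 Affymetrix Murine Genome U74Av2 arrays of the study. The hypoxia arrays were those whose titles name the chamber, and the controls were the arrays at 21% oxygen whose titles, as in the chamber group, give no experiment number. The labels do not state that these 2 arrays were the chamber's own controls, so their assignment is an inference on which every chamber value rests. All 10833 probe sets that name 1 gene were tested, of 12488 on the array, and they stood for 8251 genes.

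B16-F10 is a pigmented line of C57BL/6J origin, obtained per the labels from ATCC and grown in RPMI medium with fetal bovine serum in a CO2 incubator. No genetic change separated the groups, and all arrays shared the line. The rest of the study held 2 sets of cells at 1% oxygen for 24 h in an oxygen flow-regulated incubator (experiments 1 and 2, each 3 arrays with 2 controls at 21% oxygen) and a set with 100 or 200 µM CoCl2 for 24 h (experiment 3, 2 arrays at each dose and 2 controls). The labels do not say how long the controls were kept, or whether arrays numbered as biological replicas came from separately grown cultures. The p-values therefore measure the spread between arrays of a group, estimated over all 21 arrays and not over the chamber set alone. The 5 chamber arrays limit the precision. The chamber was used in 1 set, so device and set cannot be told apart.

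In most animal cells the response to low oxygen runs through the hypoxia-inducible factor (HIF), a pair of proteins whose alpha subunit is hydroxylated by oxygen-using EGLN enzymes, bound by the VHL protein and degraded while oxygen is plentiful. When oxygen is short the alpha subunit escapes, joins ARNT and binds the core letters ACGTG or GCGTG in control regions of genes for glucose use, vessel growth and mitochondrial turnover. Severe or prolonged oxygen shortage is also known to slow cell division, ribosome production and protein synthesis, which are costly in energy.

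The values were log2 RMA signals, on which a difference of 1 unit is a 2-fold change. A gene was called higher or lower where the limma model gave an adjusted p under 0.05, and a ± after a log2 change is the standard error (SE) of that model. Arrays of the same chamber group correlated across genes at 0.997 for hypoxia and 0.998 for control. The 3′ minus 5′ signal of the Actb control probe sets, a sign of RNA quality, was 0.29 to 0.42 in the chamber hypoxia arrays. It was 0.30 to 0.50 in their controls. In experiment 3 it was 1.41 to 1.62 in the controls, 2.16 to 2.36 at 100 µM CoCl2 and 0.50 to 1.47 at 200 µM. Those arrays also entered the model's estimate of the error. The 2 chamber controls stood apart in spread. Their SD over probe sets was 2.08 and 2.09, against 1.99 to 2.03 in the chamber hypoxia arrays and 1.97 to 2.03 in the incubator arrays of both conditions. With this spread the median change depended on the level of a gene. With genes split by level into 4 bins of equal size, it was 0.11, 0.12, 0.01 and -0.13 log2 units from the dimmest bin to the brightest, and after quantile normalization of the arrays the same medians were 0.02, 0.06, 0.05 and -0.01. The part of this shift in the counts below was not tested beyond the alternatives given with them.

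Markers of the labelled lineage and of other cell types were followed across the groups. Pmel (the fibril protein of melanosomes) was at 12.25, 12.19 and 12.17 in the chamber and 12.45 and 12.35 in the controls, and Dct (dopachrome tautomerase of melanin synthesis) at 11.76, 11.80 and 11.82 in the chamber and 11.83 and 11.75 in the controls. Of 8 measured melanocyte markers 1 was higher and 1 lower. Their summed linear signal was 12112 to 12500 in the chamber arrays, against 12737 to 13595 in the controls. Levels of different probe sets cannot be ranked against each other, so each sum is compared only between the groups. The 18 leukocyte markers summed to 800 to 854 in the chamber and 684 to 694 in the controls, with 2 called higher (0 and 1 without control array 1 and 2). The 15 fibroblast markers summed to 834 to 889 and 680 to 708, with 1 called higher (0 without any 1 of the 5 chamber arrays), and the 14 epithelial markers to 484 to 528 and 452 to 465, with 0 called in either direction by limma (2 higher and 0 lower at an unadjusted p under 0.05). The 11 endothelial markers summed to 1404 to 1594 in the chamber and 1832 to 1948 in the controls, with the TGF-beta co-receptor gene Eng among them at 10.13, 10.36 and 10.31 in the chamber and 10.63 and 10.74 in the controls, which fell by 0.42 log2 units (adjusted p = 0.15 without control array 2 and 0.0669 without hypoxia array 1). Eng made up most of the endothelial sum, while the median change of the 11 markers was 0.15, with 0 called higher. Vwf, also in this list, was not called on its brightest probe set (0.28) and was called higher on another (0.59). The fibroblast marker called higher was Col1a2 (0.45), whose other probe set was called lower (-0.32). Its limma call was lost with the mean of its probe sets (adjusted p = 0.64) and with 6 controls pooled (0.82). Detection calls were not used here, so no marker could be called absent.

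In the chamber 1763 of 8251 genes (21.4%) were called changed, 587 higher (7.11%) and 1176 lower (14.3%). The rises were fewer than the falls in this fit, though not with a weight per array in the model (2047 higher and 1980 lower). In the reported fit the rises reached further, although the median fall was the larger. At least 0.5 log2 units was reached by 293 genes upward and 797 downward, at least 1 unit by 98 genes upward and 121 downward, at least 2 units by 24 upward and 0 downward, and at least 3 units by 5 upward. Genes called higher had a median control level of 6.37 and a median change of 0.50, and genes called lower had a median control level of 7.56 and a median change of -0.60. The hypoxia and control arrays overlapped for none of the 1763 called genes. Separation alone was common: in 38.1% of all genes the 3 hypoxia arrays lay above both controls, and in 28.9% they lay below. The count of called genes was 1006 without control array 1 and 859 without control array 2, and 998 and 857 of those were among the 1763.

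**Figure D1:**
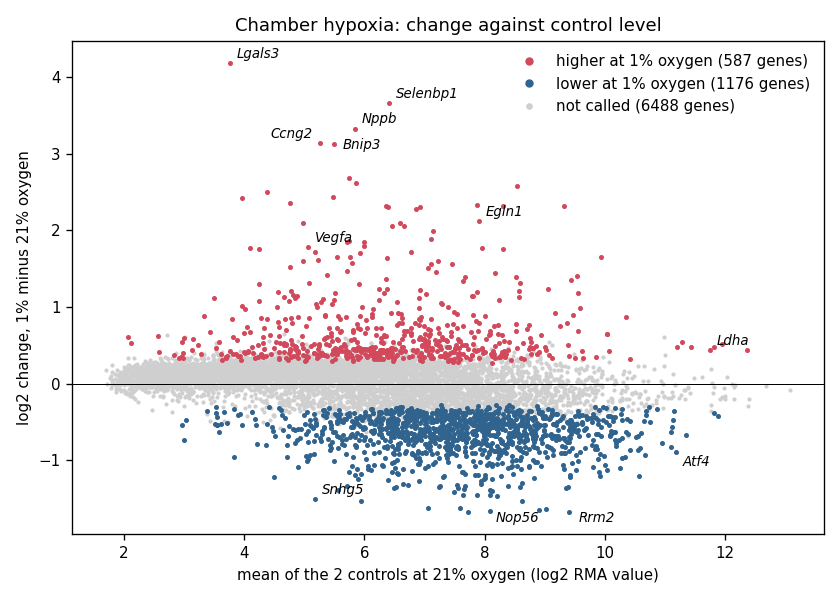
Each point is 1 of 8251 genes, placed by the mean log2 RMA value of the 2 controls (horizontal axis) and by its log2 change at 1% oxygen (vertical axis). The 587 genes called higher (red) reach 4.18 log2 units, while the 1176 called lower (blue) reach no further than -1.67 and are most numerous at middle and high levels.

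The highest rise was that of Lgals3, the gene of galectin-3, a lectin that binds galactose-bearing sugars at the cell surface and is abundant in many tumours. Its level was 8.01, 7.67 and 8.16 in the 3 chamber hypoxia arrays, against 3.96 and 3.57 in the 2 controls. The groups lay far apart, and the change was 4.18 ± 0.21 log2 units (SE; adjusted p = 1.57e-11), an 18.2-fold rise whose size is uncertain because the controls were dim. Selenbp1, which encodes selenium-binding protein 1, a methanethiol oxidase, was at 10.09, 9.97 and 10.14 in the chamber, against 6.52 and 6.30 in the controls. Its 3 hypoxia arrays were tightly placed, 3.66 ± 0.17 log2 units above the controls (adjusted p = 5.22e-12). Nppb, the precursor gene of B-type natriuretic peptide, was at 9.32, 8.96 and 9.19 in the chamber and 5.80 and 5.89 in the controls, a rise of 3.32 ± 0.15 (adjusted p = 5.22e-12). The atypical cyclin gene Ccng2, whose product restrains the cell cycle, was at 8.39, 8.21 and 8.62 in the chamber and 5.25 and 5.28 in the controls, and rose by 3.14 ± 0.15 (adjusted p = 1.57e-11). In each of these 4 genes every hypoxia array lay far above both controls, and the arrays within a group lay close together.

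Of these 4 genes, Lgals3, Selenbp1 and Ccng2 held the HIF core letters in their promoters, which are shown for that reason, and the window of Nppb held none of them. The sequences are RefSeq promoters of build GRCm38.p6, 250 bases before to 50 after the gene start on the plus strand, and capitals mark ACGTG or GCGTG, or the same letters read on the other strand. Lgals3 (gene at chr14:47373860-47386167) held 1 match that starts 90 bases before the gene start, Selenbp1 held 3 matches that start 204, 181 and 177 bases before it, the last 2 overlapping, and Ccng2 held 1 match 49 bases before it. The windows are chr14:47373610-47373909, chr3:94932833-94933132 and chr5:93267323-93267622.
Lgals3: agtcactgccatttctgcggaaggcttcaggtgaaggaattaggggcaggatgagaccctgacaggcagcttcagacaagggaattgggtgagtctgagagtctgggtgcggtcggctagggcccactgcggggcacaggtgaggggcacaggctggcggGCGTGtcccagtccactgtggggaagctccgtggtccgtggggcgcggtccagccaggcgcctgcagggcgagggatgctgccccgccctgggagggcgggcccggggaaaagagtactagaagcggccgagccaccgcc
Selenbp1: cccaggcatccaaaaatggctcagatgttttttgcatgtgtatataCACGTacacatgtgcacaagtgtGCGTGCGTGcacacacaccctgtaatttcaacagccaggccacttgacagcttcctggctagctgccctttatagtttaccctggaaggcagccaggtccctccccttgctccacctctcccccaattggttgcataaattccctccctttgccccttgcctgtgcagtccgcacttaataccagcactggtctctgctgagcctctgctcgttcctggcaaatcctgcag
Ccng2: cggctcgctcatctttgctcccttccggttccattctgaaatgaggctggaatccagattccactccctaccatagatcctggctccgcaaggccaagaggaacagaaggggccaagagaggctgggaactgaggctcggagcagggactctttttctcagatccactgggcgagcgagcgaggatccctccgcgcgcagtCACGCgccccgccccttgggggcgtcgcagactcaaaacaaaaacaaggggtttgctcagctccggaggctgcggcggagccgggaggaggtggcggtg

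A match of 5 letters is common. Either core was found on either strand in 60 of 83 promoters of genes that rose by at least 1 log2 unit (72.3%) and in 78 of 106 promoters of genes that fell by at least 1 (73.6%), beside 3887 of 6572 promoters of all tested genes with a promoter in the table (59.1%). The letters ACGTG, which also lie inside the E-box CACGTG, were held by 39.8% of the promoters of steep rises and 33.0% of those of steep falls, beside 24.5% over all tested genes. These shares describe letters in a window, and no binding was measured.

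Other steep rises had varied roles. Bnip3, a mitophagy receptor of the outer mitochondrial membrane, was at 8.51, 8.52 and 8.85 in the chamber and 5.66 and 5.34 in the controls and rose by 3.13 ± 0.16 log2 units (adjusted p = 3.44e-11). Fos, an AP-1 subunit and immediate early gene, was at 8.45, 8.05 and 8.79 in the chamber and 5.74 and 5.76 in the controls, a rise of 2.68 on its brighter probe set, while its other set changed by 0.13 and was not called. The groups did not overlap in either gene. Rnf19a, a RING-finger ubiquitin ligase, rose by 2.62 ± 0.15, and Ier3, an immediate early gene tied to survival signalling, rose by 2.58 ± 0.20, to 11.12, 11.08 and 11.16 in the chamber, against 8.69 and 8.38 in the controls. Ccn2, the gene of connective tissue growth factor, rose by 2.50, and Ahr, the aryl hydrocarbon receptor, by 2.42. Pkp2 (plakophilin 2 of desmosomes) rose by 2.43 and 2.21 on 2 probe sets and was not called on a further set (0.34). Gbe1, the glycogen branching enzyme, rose by 2.36. All 12 of the highest rises and 12 of the deepest falls kept their call under every alternative tried.

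The deepest falls were those of genes for DNA synthesis, polyamines and protein folding. Cdca7, a cell-cycle gene whose product partners the chromatin remodeller HELLS, was at 5.92, 6.15 and 6.06 in the chamber, against 7.72 and 7.71 in the controls, a fall of 1.67 ± 0.13 log2 units (adjusted p = 1.67e-08). Rrm2, the small subunit of ribonucleotide reductase, was at 7.70, 7.88 and 7.61 in the chamber and 9.50 and 9.31 in the controls, a fall of 1.67 ± 0.20. Srm (spermidine synthase) was at 6.44, 6.49 and 6.34 in the chamber and 8.13 and 8.04 in the controls, a fall of 1.66 ± 0.12. In all 3 genes every hypoxia array lay below both controls, by far more than the arrays of a group differed. Hsph1, a large co-chaperone of HSP70, fell by 1.65, and the snoRNA protein gene Nop56 by 1.63, with a second Nop56 probe set at -0.37 and not called. The glutamine transporter gene Slc1a5 fell by 1.63. Snhg1 and Snhg5, host transcripts of small nucleolar RNAs, fell by 1.62 and 1.51. Bckdhb, a subunit of branched-chain ketoacid dehydrogenase, fell by 1.53 and Limch1, an activator of non-muscle myosin, by 1.46. Mid1ip1, a promoter of acetyl-CoA carboxylase assembly, fell by 1.53 and Txnip, an inhibitor of thioredoxin and of glucose uptake, by 1.46, and each had a second probe set that was not called (-0.34 and 0.24).

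**Figure D2:**
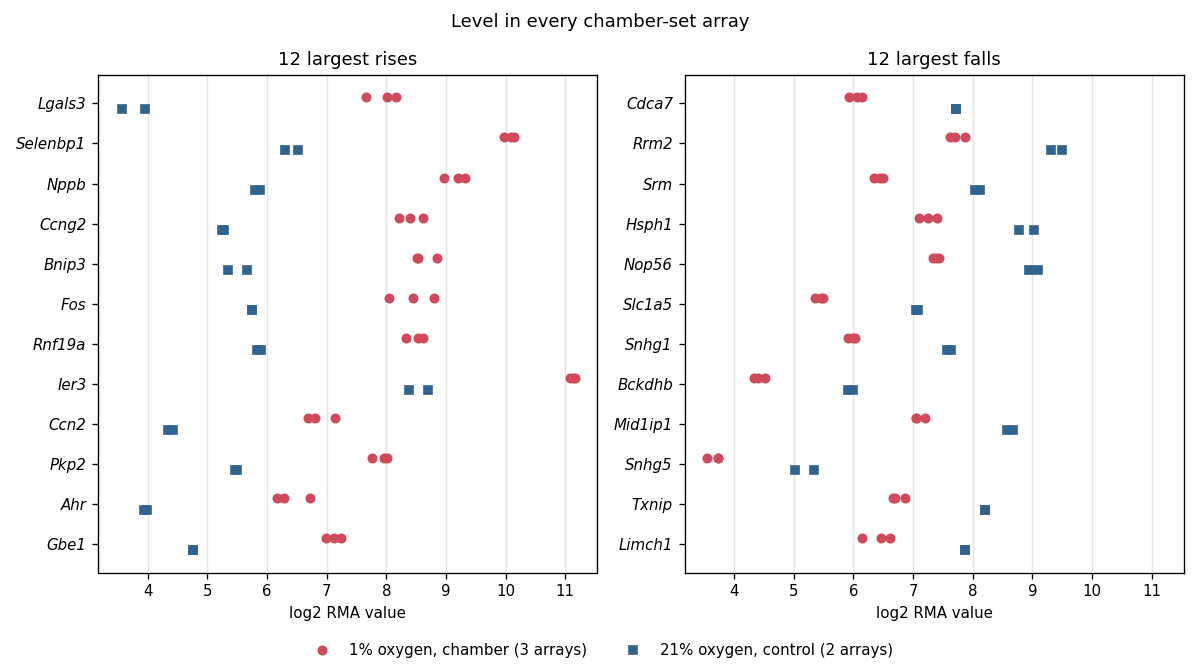
Log2 RMA values (horizontal axis) of the 12 highest rises and the 12 deepest falls in each of the 3 chamber hypoxia arrays (red circles) and the 2 controls (blue squares). The groups are apart for every gene, and the gap of Lgals3 is the widest.

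**Figure D3:**
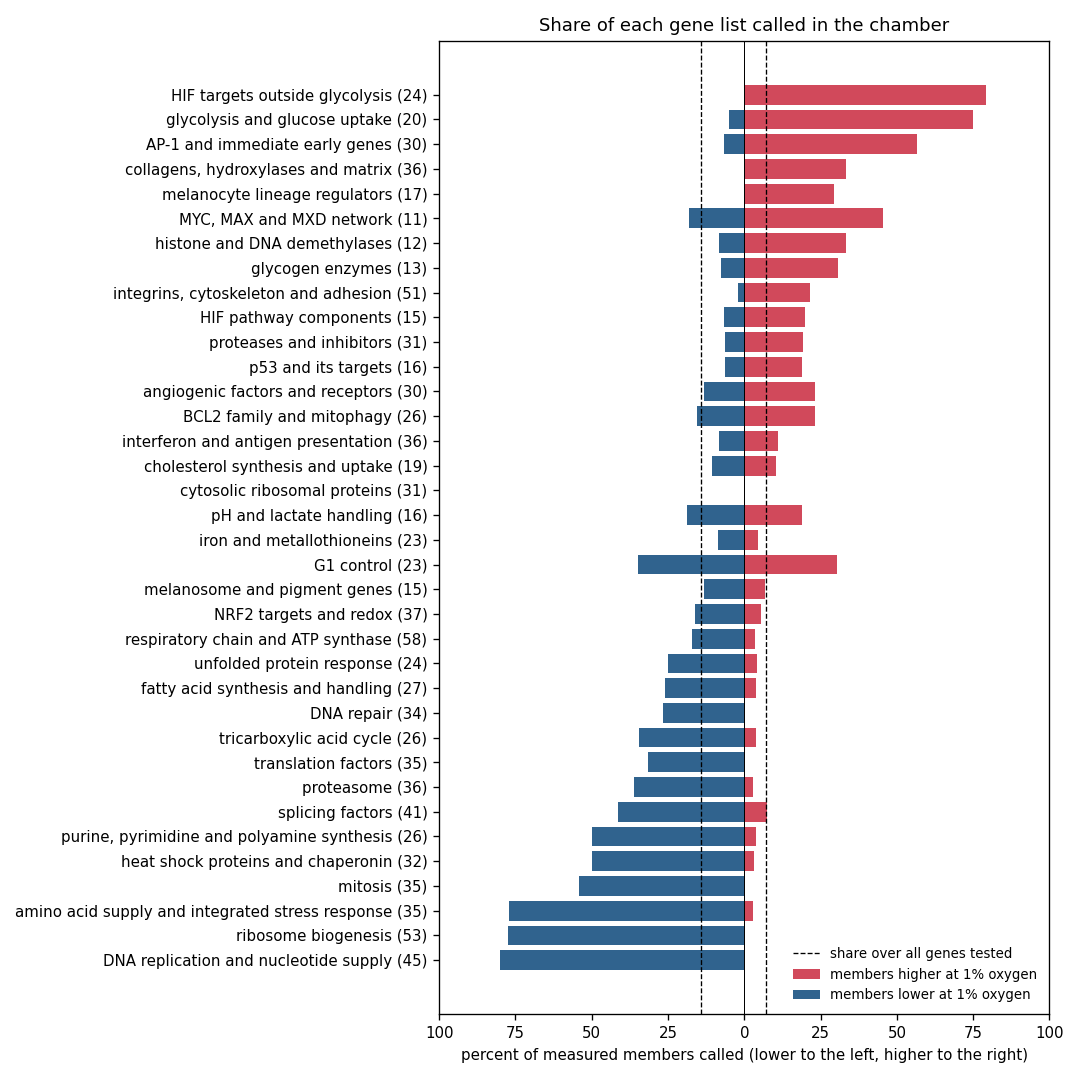
For 36 gene lists, bars give the percent of measured members (their number in parentheses) called higher at 1% oxygen to the right and lower to the left, with dashed lines at the shares over all genes (7.11% higher, 14.3% lower). HIF targets, glycolysis and AP-1 genes reach far beyond the line to the right, and DNA replication, ribosome biogenesis and amino acid supply far beyond it to the left.

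Genes that HIF is known to induce rose widely. Of 24 measured HIF targets outside glycolysis 19 were called higher and 0 lower (0 lower also at an unadjusted p under 0.05), with a median change of 1.43, beside a median of 0.07 over all genes. The list holds Selenbp1, placed there from earlier hypoxia work on this line, so its rise is no independent evidence. Ero1a, the oxidase that drives disulfide formation in the endoplasmic reticulum, was at 11.59, 11.68 and 11.65 in the chamber, against 9.44 and 9.20 in the controls, and rose by 2.32 ± 0.10 log2 units (adjusted p = 5.22e-12). Ddit4, an inhibitor of the growth kinase mTORC1, was at 10.10, 10.28 and 10.22 in the chamber and 8.12 and 7.63 in the controls, a rise of 2.33 ± 0.16. Bhlhe40, a repressor of transcription, was at 9.10, 9.02 and 9.31 in the chamber and 6.93 and 6.80 in the controls, a rise of 2.28 ± 0.20. On a linear scale these 3 rises were 5-fold, 5.02-fold and 4.87-fold. Vegfa, the growth factor of vessels, was at 7.06, 6.51 and 6.99 in the chamber and 5.10 and 5.04 in the controls and rose by 1.78 ± 0.16, and the vasodilator peptide gene Adm rose by 1.76 ± 0.16. Hmox1 (haem oxygenase 1) rose by 0.99.

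Most transcripts of the HIF pathway's own machinery were not called, and Egln1 had the largest change among them. Of 15 measured components 3 were higher (20.0%) and 1 lower (6.67%), beside 7.11% and 14.3% over all genes. The list median was -0.02. Egln1, the prolyl hydroxylase that marks HIF for degradation, was at 9.99, 10.06 and 10.05 in the chamber, against 7.97 and 7.84 in the controls, a rise of 2.13 ± 0.14 (adjusted p = 1.20e-09). Its relative Egln2 was at 7.82, 7.97 and 7.90 in the chamber and 8.46 and 8.55 in the controls and fell by 0.61 ± 0.11 (adjusted p = 3.81e-04). The 2 hydroxylase genes thus moved in opposite directions, with no overlap of groups in either. Vhl, the ligase subunit that recognises hydroxylated HIF, rose by 0.52 and the HIF alpha relative Hif3a by 0.44. Their adjusted p was 0.133 and 0.115 without control array 1, 0.0925 and 0.105 without control array 2, and 0.0686 and 0.0877 without hypoxia array 1, so the count of higher members was 1 without either control. Hif1a, the alpha subunit regulated mainly at the protein level, was at 9.76, 9.94 and 10.06 in the chamber and 10.06 and 10.15 in the controls and was not called (-0.18 ± 0.15, adjusted p = 0.406). Changes of Epas1 (0.05) and Arnt (0.16) were not called either.

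Most members of the glycolysis list were called higher. Of 20 glycolytic enzyme and glucose uptake genes measured, 15 were higher (75.0%) and 1 lower (5.0%), with a median of 0.51. The shares over all genes were 7.11% higher and 14.3% lower. The count of higher members was 11 without either control array. Slc2a1, the glucose transporter GLUT1, was at 8.55, 8.43 and 8.56 in the chamber, against 6.50 and 6.42 in the controls, a rise of 2.05 ± 0.12 (adjusted p = 3.43e-10). Pfkp, the platelet type of phosphofructokinase, was at 8.65, 8.62 and 8.84 in the chamber and 6.53 and 6.27 in the controls, a rise of 2.30 ± 0.20. Aldoc (aldolase C) was at 8.76, 8.52 and 8.78 in the chamber and 6.58 and 6.59 in the controls, a rise of 2.10 ± 0.14. All 3 lay far above both controls. The abundant lactate dehydrogenase gene Ldha, at 12.15, 12.13 and 12.30 in the chamber and 11.78 and 11.73 in the controls, rose by only 0.44 ± 0.14 (adjusted p = 0.035). Its adjusted p was 0.134 and 0.199 without control array 1 or 2, and 0.0626, 0.0567 and 0.107 without hypoxia array 1, 2 or 3. Hexokinase gene Hk2 rose by 1.76, with a second probe set at 0.10 and not called, and the neuronal enolase gene Eno2 by 1.52. Pdk1, which inactivates pyruvate dehydrogenase and so limits pyruvate entry into mitochondria, rose by 1.72 ± 0.13. The member that fell was the monocarboxylate transporter Slc16a1 (-0.53 ± 0.14), which was dim, at 2.96, 2.83 and 3.12 in the chamber and 3.71 and 3.31 in the controls, and had an adjusted p of 0.248 without control array 1 and 0.0548 without hypoxia array 2.

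Genes for 4 successive steps of glycogen synthesis rose. Of 13 measured glycogen enzymes 4 were higher and 1 lower. Pgm1, which makes glucose 1-phosphate, rose by 1.41 ± 0.10, and Ugp2, which makes UDP-glucose, by 1.60 ± 0.13. Gys1, the glycogen synthase of non-liver tissues, was at 10.60, 10.57 and 10.68 in the chamber, against 8.45 and 8.16 in the controls, a rise of 2.31 ± 0.14 (adjusted p = 4.56e-10). Gbe1, which adds branches, was at 7.12, 6.98 and 7.24 in the chamber and 4.76 and 4.75 in the controls. Of these Pgm1 acts in both directions of glycogen metabolism. The member called lower was the brain phosphorylase Pygb, which breaks glycogen down (-0.38 ± 0.11). Its adjusted p was 0.0718 and 0.147 without control array 1 or 2, and 0.0642 without hypoxia array 2. The priming protein gene Gyg was not called (-0.33).

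Some genes of oxidative metabolism fell, and most members were not called. Of 26 measured tricarboxylic acid cycle genes 9 were lower and 1 higher (median -0.34), and the count of lower members was 4 without control array 1 and 3 without control array 2. Idh2, the mitochondrial NADP isocitrate dehydrogenase, was at 8.21, 8.06 and 8.09 in the chamber, against 9.00 and 9.02 in the controls, a fall of 0.89 ± 0.12 (adjusted p = 1.16e-05). Suclg2, a succinyl-CoA ligase subunit, fell by 0.72 and the fumarase gene Fh1 by 0.57. The member that rose was malic enzyme 1, Me1 (0.65 ± 0.17), a cytosolic source of NADPH, with an adjusted p of 0.0561 and 0.0708 without control array 1 or 2. Of 58 measured genes of the respiratory chain and ATP synthase 10 were lower and 2 higher, a share of 17.2% lower that is near the 14.3% over all genes, and 3 or 2 remained lower in count without control array 1 or 2. Uqcrc1, a core subunit of complex III, fell by 0.74 ± 0.13. The list median was -0.16, and -0.07 after quantile normalization.

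Acid and lactate handling changed in both directions. Of 16 measured genes 3 were higher and 3 lower, with 1 higher and 2 lower without either control array. Bsg (basigin), a chaperone of lactate transporters, was at 10.81, 10.52 and 10.89 in the chamber, against 9.61 and 9.50 in the controls, a rise of 1.19 ± 0.19 (adjusted p = 1.07e-04), and the bicarbonate cotransporter gene Slc4a4 rose by 0.50 (adjusted p = 0.0551, 0.114 and 0.0632 without control array 1, control array 2 or hypoxia array 2). The membrane carbonic anhydrase gene Car14 was at 9.07, 9.00 and 9.05 in the chamber and 10.03 and 9.95 in the controls and fell by 0.95 ± 0.13 (adjusted p = 1.62e-05).

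DNA replication genes fell widely. Of 45 measured members 36 were lower (80.0%) and 0 higher (1 at an unadjusted p under 0.05), with a median of -0.79, and -0.69 after quantile normalization. In bulk RNA, fewer cells in S phase and less of these transcripts per cell cannot be told apart. Cdc6, which loads the replicative helicase at origins, was at 6.56, 6.68 and 6.68 in the chamber, against 8.10 and 8.09 in the controls, a fall of 1.45 ± 0.13 (adjusted p = 1.29e-07). Rfc4, a subunit of the clamp loader, was at 5.19, 5.18 and 5.18 in the chamber and 6.50 and 6.55 in the controls, a fall of 1.35 ± 0.13. Uhrf1, which passes DNA methylation to the new strand, was at 8.13, 8.04 and 7.96 in the chamber and 9.36 and 9.43 in the controls, a fall of 1.35 ± 0.15. In each of these genes the 3 hypoxia arrays lay closer to each other than to any control. Fen1, the flap endonuclease, fell by 1.27. All 5 replication factor C subunits and 5 of 6 MCM helicase subunits were lower, 2 sets picked out after their values were seen. Among the MCM genes, Mcm5 fell by 1.201 on its brighter probe set and changed by 0.29 without a call on another.

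Many mitosis genes and some DNA repair genes fell. Of 35 measured mitosis genes 19 were lower and 0 higher, also without adjustment (median -0.44), with 13 lower without control array 1 and 9 without control array 2. Cdc20, the activator of the anaphase-promoting complex, was at 9.00, 8.92 and 9.01 in the chamber, against 9.78 and 9.89 in the controls, a fall of 0.86 ± 0.12 (adjusted p = 3.94e-05). The microtubule-binding stathmin gene Stmn1 fell by 0.98, with a second probe set at 0.11 and not called, the kinesin gene Kif23 by 0.80 and the survivin gene Birc5 by 0.73. The proliferation marker Mki67 was not called (-0.44 ± 0.19, adjusted p = 0.106). Of 34 measured DNA repair genes 9 were lower and 0 higher (2 at an unadjusted p under 0.05), and the list median was -0.03. Chek1, the checkpoint kinase of stalled forks, was at 6.29, 6.29 and 6.26 in the chamber and 7.64 and 7.68 in the controls, a fall of 1.38 ± 0.12, and Apex1, the abasic site endonuclease, fell by 1.19.

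Genes that govern entry into the cycle moved in both directions. Of 23 measured G1 control genes 7 were higher and 8 lower, with 4 and 5 without either control array. Cdkn1a, the p21 inhibitor of cyclin-dependent kinases, was at 9.22, 8.85 and 9.35 in the chamber, against 7.08 and 7.22 in the controls, a rise of 1.99 ± 0.27 (adjusted p = 1.91e-05). Its relative Cdkn1b (p27) rose by 0.86, with a second probe set at 0.28 and not called, and the cyclin D2 gene Ccnd2 by 0.76. Tfdp1, the dimer partner of E2F factors, fell by 1.35, and by 1.06 on a second probe set, with another at -0.15 and not called, and Cks1b, a subunit of cyclin-dependent kinases, by 0.94. The rises in this list were thus led by inhibitors of the cycle, Ccng2, Cdkn1a and Cdkn1b, with Ccnd2 as the member known to promote entry. Of 16 measured genes of p53 and its targets 3 were higher (Cdkn1a, Plk2 and Btg2) and 1 lower (Zmat3, by 0.74), and Btg2 had an adjusted p of 0.086, 0.199 and 0.104 without control array 1, control array 2 or hypoxia array 2.

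In the MYC network the repressors Mxi1 and Mxd4 had the largest rises, and Myc rose as well. Of 11 measured genes 5 were higher and 2 lower, with 3 higher without either control array. Mxi1, a MAX partner that represses MYC sites, was at 7.53, 7.61 and 7.75 in the chamber, against 5.99 and 5.86 in the controls, a rise of 1.70 ± 0.17 (adjusted p = 3.93e-07). Mxd4, of the same repressor family, was at 8.17, 7.76 and 8.15 in the chamber and 6.26 and 6.50 in the controls, a rise of 1.64 ± 0.12. Myc was at 6.23, 6.06 and 6.44 in the chamber and 5.44 and 5.26 in the controls, a rise of 0.89 ± 0.15 (adjusted p = 2.12e-04). Their shared partner gene Max fell by 0.59, with an adjusted p of 0.161 and 0.146 without control array 1 or 2 and 0.112 and 0.0561 without hypoxia array 1 or 2.

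Ribosome biogenesis factors fell widely, and no measured gene of the cytosolic ribosomal proteins passed the test. Of 53 measured nucleolar factors 41 were lower (77.4%) and 0 higher, also without adjustment, with a median of -0.71, and -0.62 after quantile normalization. Nop56, a core protein of the small RNA particles that guide rRNA methylation, was at 7.44, 7.39 and 7.33 in the chamber, against 8.95 and 9.09 in the controls (adjusted p = 5.98e-09). Its partner gene Nop58 was at 6.04, 6.08 and 6.12 in the chamber and 7.28 and 7.33 in the controls, a fall of 1.22 ± 0.17. Tsr1, a factor of the small subunit, was at 6.96, 7.05 and 7.13 in the chamber and 8.40 and 8.38 in the controls, a fall of 1.34 ± 0.15. The groups did not overlap in any of these 3 genes. All 6 measured core proteins of box C/D and H/ACA particles were lower (median -1.13), a set picked out after its values were seen. Bop1 and Bysl, factors of the large and the small subunit, fell by 1.41 and 1.36, and each had a second probe set that was not called (0.30 and -0.14). Of 31 measured cytosolic ribosomal protein genes 0 passed the limma test in either direction (1 higher and 0 lower at an unadjusted p under 0.05, median -0.05), with the largest change at 0.38 for Rpl22 (adjusted p = 0.0564). Several of these are bright, with Rps3 at 11.75, 11.73 and 11.69 in the chamber and 11.91 and 11.94 in the controls, where array signal responds less to a change in RNA. Under the alternatives up to 5 were called higher and up to 3 lower.

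Some translation factor genes fell. Of 35 measured members 11 were lower and 0 higher (1 at an unadjusted p under 0.05, median -0.33), with 7 lower without control array 2. Eif4g2, an initiation factor of the eIF4G family, was at 6.28, 6.46 and 6.75 in the chamber, against 7.60 and 7.56 in the controls, a fall of 1.08 ± 0.15 (adjusted p = 2.58e-05). Gspt1, the release factor eRF3a, fell by 0.89, and Eif2b1, a subunit of the exchange factor of eIF2, by 0.72.

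Genes of amino acid supply and the integrated stress response fell widely. Of 35 measured genes 27 were lower (77.1%) and 1 higher, with a median of -0.67, and -0.57 after quantile normalization. The list covers amino acid transport, synthesis and tRNA charging and also holds stress factors such as Atf3. Many members are targets of the integrated stress response factor ATF4. Atf4 itself was at 10.46, 10.25 and 10.15 in the chamber, against 11.19 and 11.18 in the controls, a fall of 0.90 ± 0.18 (adjusted p = 0.0014). Slc7a5, the transporter of large neutral amino acids, was at 9.45, 9.30 and 9.37 in the chamber and 10.56 and 10.59 in the controls, a fall of 1.201 ± 0.12. Psph, the last enzyme of serine synthesis, was at 8.25, 8.17 and 8.21 in the chamber and 9.47 and 9.39 in the controls, a fall of 1.22 ± 0.18. Each of the 3 was lower in all hypoxia arrays than in both controls. Of 15 measured aminoacyl-tRNA synthetase genes, a set picked out after its values were seen, 12 were lower, and all 15 changes lay between -0.89 and -0.22. Slc38a2 and Shmt1 fell by 1.45 and 1.33 on their brightest probe sets, while the other sets of both genes were not called (0.04 to 0.21 for Slc38a2, 0.13 for Shmt1). The member that rose was Atf3, a stress-induced repressor (1.51 ± 0.21), which rose by 1.11 on a second set and was not called on another (0.25).

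**Figure D4:**
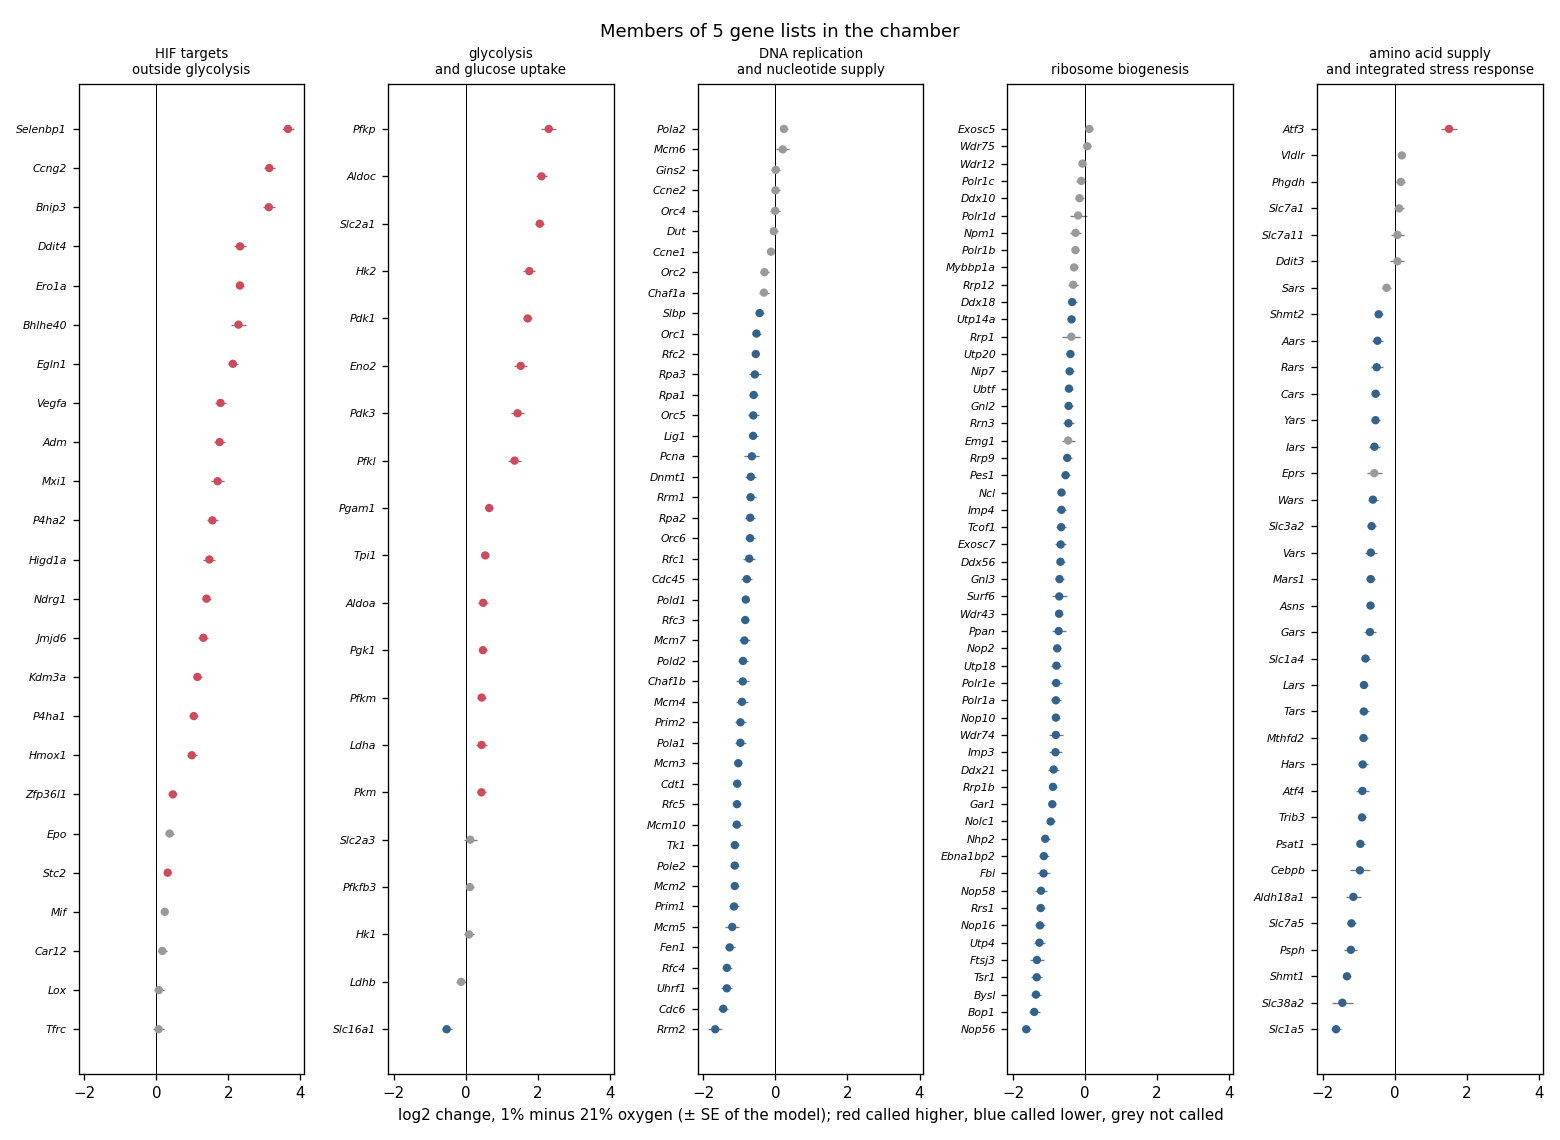
Log2 change with the SE of the model (horizontal axis) for each measured member of 5 lists, red where called higher, blue where called lower and grey where not called. The HIF and glycolysis members lie mostly right of 0, and the replication, ribosome biogenesis and amino acid members mostly left of it, with Atf3 on the other side.

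Some folding factors of the cytosol and the endoplasmic reticulum fell. Of 32 measured heat shock and chaperonin genes 16 were lower and 1 higher (median -0.41), with 10 lower without either control array. Hsph1 was at 7.25, 7.40 and 7.09 in the chamber, against 8.77 and 9.03 in the controls (adjusted p = 1.63e-07). Hspe1, the mitochondrial HSP10, was at 8.84, 8.84 and 9.11 in the chamber and 10.03 and 9.97 in the controls, a fall of 1.07 ± 0.13. Ppid and Fkbp4, co-chaperones of HSP90, fell by 1.34 and 0.93. Of 24 measured genes of the unfolded protein response 6 were lower and 1 higher (median -0.09), with 4 lower and 0 higher without either control array. Herpud1, a membrane protein of endoplasmic reticulum degradation, was at 7.43, 7.56 and 7.48 in the chamber and 8.62 and 8.59 in the controls, a fall of 1.11 ± 0.13 (adjusted p = 2.06e-06), and the co-chaperone gene Dnajc3 fell by 1.15 on its brightest set and was lower on 2 others (-0.66 and -0.69), with a further set at 0.11 and not called. Both falls stood beside the rise of Ero1a in the same compartment.

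Some splicing and proteasome genes fell. Of 41 measured splicing factors 17 were lower and 3 higher, with 9 lower without control array 1. Srsf1, a serine-arginine splicing activator, fell by 1.18 on its brightest probe set (adjusted p = 0.135 without control array 1) and by 1.47 on a second, and was not called on 2 others (-0.02 and -0.44). Hnrnpab, an hnRNP protein, fell by 0.89 ± 0.13. The kinase genes Clk1 and Clk4, which phosphorylate serine-arginine proteins, rose by 0.91 ± 0.15 and 1.09 ± 0.17. Of 36 measured proteasome genes 13 were lower and 1 higher, with 4 lower without control array 1 and 3 without control array 2. Psmd7, a subunit of the regulatory lid, fell by 0.81, whereas Psmd8, of the same particle, was at 10.07, 9.86 and 10.09 in the chamber and 9.23 and 9.29 in the controls and rose by 0.75 ± 0.12 (adjusted p = 1.42e-04).

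Some genes of nucleotide and polyamine synthesis fell. Of 26 measured genes 13 were lower and 1 higher (median -0.33). Gart, an enzyme of the purine ring pathway, was at 6.52, 6.53 and 6.41 in the chamber, against 7.62 and 7.71 in the controls, a fall of 1.18 ± 0.10 (adjusted p = 3.10e-08). Ctps, which makes CTP, was at 7.69, 7.69 and 7.61 in the chamber and 8.69 and 8.78 in the controls, a fall of 1.07 ± 0.11. Adsl, which acts in the purine pathway beside Gart, fell by 1.09.

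Some matrix and adhesion genes rose, and most members of both lists were not called. Of 36 measured genes of collagens, their hydroxylases and other matrix proteins 12 were higher and 0 lower (2 at an unadjusted p under 0.05, median 0.27), with 8 and 7 higher without control array 1 and 2. Ccn1, a matricellular relative of Ccn2, was at 8.83, 8.61 and 8.60 in the chamber, against 6.38 and 6.36 in the controls, a rise of 2.31 ± 0.20 (adjusted p = 4.87e-08). P4ha1 and P4ha2, subunits of the collagen prolyl hydroxylase that itself needs oxygen, rose by 1.04 ± 0.13 and 1.56 ± 0.15. Fn1 (fibronectin) rose by 0.85 and Sparc (osteonectin) by 0.72, the last with an adjusted p of 0.104 without control array 2. Of 51 measured genes of integrins, cytoskeleton and adhesion 11 were higher and 1 lower (median 0.21), with 7 higher without control array 1. Vcl, vinculin of focal adhesions, was at 8.51, 8.87 and 8.79 in the chamber and 6.70 and 6.63 in the controls, a rise of 2.06 ± 0.17, and Cnn2 (calponin 2, an actin-binding protein) rose by 1.85. Mcam, a melanoma adhesion molecule, rose by 1.396 ± 0.15, and the integrin gene Itga4 rose by 1.31 and 0.87 on 2 probe sets and was not called on another (0.32). The member that fell was Gja1 (connexin 43 of gap junctions), at 4.89, 4.88 and 5.05 in the chamber and 5.89 and 6.22 in the controls, by 1.12 ± 0.12.

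Among proteases and their inhibitors 6 of 31 measured were higher and 2 lower, with 3 and 2 higher without control array 1 and 2. Plat, the tissue plasminogen activator, was at 7.06, 6.75 and 6.86 in the chamber, against 5.28 and 5.07 in the controls, a rise of 1.71 ± 0.13 (adjusted p = 1.42e-08). The metalloprotease gene Adam19 fell by 0.86. Of 30 measured angiogenic factors and receptors 7 were higher and 4 lower, with 4 higher without either control array and 2 or 1 lower without control array 1 or 2. Beside Nppb, Vegfa and Adm, the platelet-derived growth factor gene Pdgfa rose by 0.57. Angpt2, a ligand of the TIE2 receptor, fell by 0.76 ± 0.12, and Vegfc, a growth factor of lymphatic vessels, by 0.57 (adjusted p = 0.0708 and 0.0684 without control array 1 or 2).

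Many immediate early genes rose. Of 30 measured AP-1 and immediate early genes 17 were higher and 2 lower (median 0.48), with 10 higher without either control array. Jun, the partner of Fos in AP-1, was at 7.20, 7.08 and 7.28 in the chamber, against 5.50 and 5.59 in the controls, a rise of 1.65 ± 0.11 (adjusted p = 2.06e-09). Klf6, a zinc-finger factor, was at 9.06, 8.89 and 9.22 in the chamber and 7.91 and 7.83 in the controls, a rise of 1.19 ± 0.13, and the MAP kinase phosphatase gene Dusp1 rose by 1.23 ± 0.21. Of 12 measured genes of histone and DNA demethylases and their relatives, 4 were higher and 1 lower. Many of them encode enzymes that use oxygen as HIF hydroxylases do, but the list, which holds Jarid2, was not limited to such enzymes. The lower member, Riox2, lost its call without any 1 of the 3 hypoxia arrays. Its change was -0.44 without control array 1 and -0.36 without control array 2. Kdm3a, which demethylates histone H3 lysine 9, was at 8.83, 8.96 and 9.06 in the chamber and 7.85 and 7.77 in the controls, a rise of 1.14 ± 0.13 (adjusted p = 2.54e-06). The relatives Jmjd6 and Kdm5b rose by 1.31 and 1.07.

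Pigment genes were called about as often as all genes, and the melanocyte regulators Mitf and Tfap2a rose. Of 15 measured melanosome genes 1 was higher and 2 lower, near the shares of 7.11% higher and 14.3% lower over all genes. Gpr143, a melanosomal receptor, was at 6.36, 6.35 and 6.38 in the chamber, against 7.42 and 7.36 in the controls, a fall of 1.03 ± 0.14 (adjusted p = 1.33e-05), and Mlph (melanophilin, which tethers melanosomes to myosin) fell by 0.73. The copper pump gene Atp7a rose by 0.68. Tyr, the rate-limiting enzyme of melanin synthesis, was at 7.67, 7.67 and 7.81 in the chamber and 7.69 and 7.34 in the controls, groups that overlapped, and was not called (adjusted p = 0.627). Of 17 measured lineage regulators 5 were higher and 0 lower, also without adjustment, with 1 and 2 higher without control array 1 and 2. Mitf, the master factor of melanocytes, was at 6.87, 6.92 and 6.84 in the chamber and 6.27 and 6.28 in the controls, a rise of 0.60 ± 0.14 (adjusted p = 0.00379), and Sox10 was not called (-0.06). Tfap2a, a lineage factor of the neural crest, rose by 0.66 ± 0.14 (adjusted p = 0.0514 without control array 1).

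Survival and antigen presentation genes held a few large changes. Of 26 measured genes of the BCL2 family and mitophagy 6 were higher (23.1%) and 4 lower (15.4%, near the 14.3% over all genes), with 4 higher and 1 lower without either control array. Bcl2l1, which encodes the survival protein BCL-xL, rose by 0.70 ± 0.10, with a second probe set at 0.17 and not called, and Bid, a death activator, fell by 0.75 ± 0.11. Of 36 measured genes of interferon response and antigen presentation 4 were higher and 3 lower (1 and 0 lower without control array 1 and 2), with shares of 11.1% and 8.33% beside 7.11% and 14.3% over all genes. H2-K1, a class I major histocompatibility gene, was at 9.27, 9.14 and 9.29 in the chamber, against 6.92 and 6.95 in the controls, a rise of 2.30 ± 0.15 (adjusted p = 8.42e-10). H2-D1, its close relative, rose by 1.56. Both genes are represented by probe sets that match a sequence family, and each has another set called higher (0.63 and 1.06) and one that was not called (0.11 and 0.46), so signal from close copies cannot be told apart. Isg20, an exonuclease induced by interferon, was at 5.89, 5.75 and 5.95 in the chamber and 4.10 and 4.09 in the controls, a rise of 1.77 ± 0.16.

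Lipid, redox and metal genes moved singly. Of 27 measured fatty acid genes 7 were lower and 1 higher, among them Cpt1a, which admits fatty acids to mitochondria, at 6.26, 6.15 and 6.21 in the chamber and 7.45 and 7.63 in the controls, a fall of 1.33 ± 0.11 (adjusted p = 3.68e-08). Elovl6, a fatty acid elongase, fell by 1.01, and Fasn, the fatty acid synthase, by 0.67 (adjusted p = 0.0732 and 0.0542 without control array 1 or 2). Of 19 measured cholesterol genes 2 were higher and 2 lower (10.5% each), with changes between -0.53 and 0.56, and without either control array 1 was higher and 1 lower. Without hypoxia array 2 the counts were 1 higher and 0 lower, and 1 was also higher without hypoxia array 3. The shares over all genes were 7.11% higher and 14.3% lower. Of 37 measured NRF2 targets and redox genes 6 were lower and 2 higher, with 3 lower without control array 2 and 1 higher without either control array. Their shares, 16.2% lower and 5.41% higher, were near the 14.3% and 7.11% over all genes. The falls were led by Gsto1, a glutathione transferase (fall of 1.16 ± 0.15), and Txnrd1, thioredoxin reductase 1 (fall of 0.78). Hmox1 was the member with the largest rise. Of 23 measured iron and metal genes 1 was higher and 2 lower (1 lower without control array 2). The shares in this list, 4.35% higher and 8.7% lower, were below the 7.11% and 14.3% over all genes. Alad, an early enzyme of haem synthesis, fell by 0.94 ± 0.11, and the metallothionein gene Mt1 was not called (0.60 ± 0.51).

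The size of the chamber response could be set against the 2 incubator experiments, which share no control array with it. By the same fit 584 genes were higher (7.08%) and 844 lower (10.2%) in experiment 1, and 595 higher (7.21%) and 606 lower (7.34%) in experiment 2. Of the 587 genes higher in the chamber, 240 were also called higher in both incubator experiments and 232 in neither. Of the 1176 lower in the chamber, 362 were called lower in both and 514 in neither. A call in 1 set and not in another is no test of a difference. The difference itself, the chamber change minus the mean of the 2 incubator changes, was called for 118 of 8251 genes (1.43%), of which 18 were more positive (0.218%) and 100 more negative in the chamber (1.21%). This count rested on the 2 chamber controls and was 11 without control array 1 and 4 without control array 2. It was 51, 43 and 68 without chamber hypoxia array 1, 2 or 3, 54 and 77 without control 1 or hypoxia array 2 of experiment 1, and 53 without control 1 of experiment 2.

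Deeper falls in the chamber were found among nucleolar and stress response genes. Of the 53 ribosome biogenesis genes 9 had a more negative change in the chamber, and the list median was -0.71 in the chamber, beside -0.13 in experiment 1 and -0.38 in experiment 2. Nop58 changed by -1.22 in the chamber, 0.04 in experiment 1 and -0.41 in experiment 2, a difference of -1.04 ± 0.20 (adjusted p = 0.0147). Ftsj3, an rRNA methyltransferase, changed by -1.34, 0.08 and -0.38 in the same order (difference -1.19), with a second probe set at 0.03 in the chamber, not called. Nifk, a nucleolar partner of Ki-67, changed by -0.77 in the chamber (adjusted p = 0.111 without control array 2) and 0.47 and 0.06 in experiments 1 and 2. Snhg1 fell by 1.62 in the chamber and changed by -0.43 and -0.61 in the incubator experiments (difference -1.10 ± 0.17). Of the 35 genes of amino acid supply and the integrated stress response 5 had a more negative change in the chamber. The list median was -0.67 there, beside 0.10 in experiment 1 and -0.37 in experiment 2. Atf4 changed by -0.90 in the chamber, against 0.23 and 0.07 in experiments 1 and 2, where it was not called (difference -1.05 ± 0.23, adjusted p = 0.0239). Nupr1, a stress-induced chromatin protein, changed by -1.03 in the chamber and 0.06 and -0.13 in the incubator, and Herpud1 by -1.11, 0.23 and -0.52. Nsmce4a, a subunit of the SMC5/6 complex, differed by -0.96. After quantile normalization the limma differences of Atf4, Nupr1 and Nsmce4a were not called (adjusted p = 0.079, 0.072 and 0.054).

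Of the genes called higher in the chamber 16 also had a called difference towards a stronger rise there, and 8 of the more positive differences are named. Plat changed by 1.71 in the chamber, 0.54 in experiment 1 and 0.93 in experiment 2, a difference of 0.98 ± 0.17 (adjusted p = 0.00682). Jun changed by 1.65, 0.73 and 0.95 in the same order (difference 0.81 ± 0.14), and Mxd4 by 1.64, 0.23 and 1.21 (difference 0.93). The orphan nuclear receptor gene Nr4a1 was called higher in the chamber (0.68) and lower in experiment 2 (-0.51), with 0.35 in experiment 1. Against the 6 pooled controls of the hypoxia sets its chamber rise was not called (limma adjusted p = 0.49). Ccnd2 changed by 0.76 in the chamber and -0.20 and 0.14 in the incubator. The others were Ache, acetylcholinesterase (difference 0.84, not called after quantile normalization), Tmem71, a transmembrane protein gene (0.79), and Rgs11, a regulator of G-protein signalling (0.69). A second Rgs11 probe set was not called for the chamber change (0.19) or for the difference (0.28).

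The rise was weaker in the chamber for 12 genes called higher there, among them both vascular peptides. Adm rose by 1.76 in the chamber, against 2.89 and 3.18 in experiments 1 and 2, a difference of -1.27 ± 0.20 (adjusted p = 0.0057). Vegfa rose by 1.78 in the chamber, against 3.11 and 2.66 (difference -1.10 ± 0.20, adjusted p = 0.00928). Vcl rose by 2.06 in the chamber, against 3.46 and 2.94, and Plk2, a polo-like kinase and p53 target, by 0.85, against 2.00 and 1.92. In each of these 4 genes both incubator changes were above that of the chamber. Of the 24 HIF targets 2, Adm and Vegfa, had a called difference, and for Egln1 the difference was 0.03 ± 0.17 (adjusted p = 0.927). Each of the 26 named differences lost its call without at least 1 of the 2 chamber controls.

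**Figure D5:**
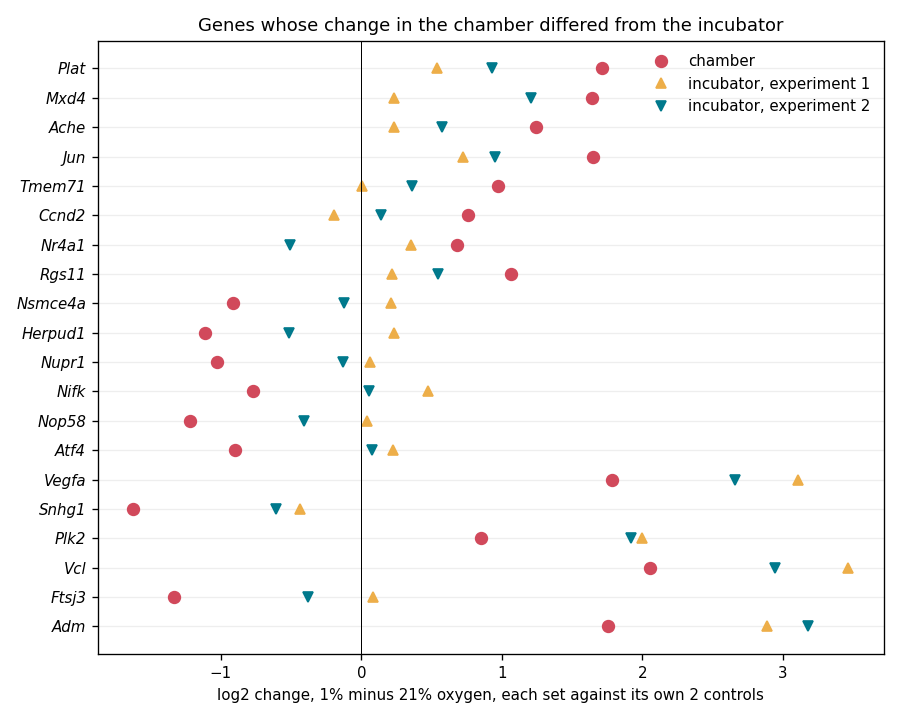
Log2 change of 20 genes in the chamber (red circles) and in incubator experiments 1 (yellow triangles) and 2 (green inverted triangles), each against the 2 controls assigned to it. For Adm, Vcl, Vegfa and Plk2 the chamber lies left of both incubator experiments on the side of rises, for Plat and Jun it lies right of both, and for Atf4 and Nop58 it lies far left.

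Different probe sets of 1 gene gave a check within the same arrays. Genes called higher had 220 further probe sets, of which 60 were called higher, 7 lower and 153 not called. Genes called lower had 382 further sets, of which 104 were called lower, 4 higher and 274 not called. Among the sets not called, 133 of the 153 shared the sign of the rise, and 134 of the 274 that of the fall. Counted by probe set, 2067 of 10833 were called (19.1%), 711 higher (6.56%) and 1356 lower (12.5%).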

How the data were processed

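The deposited values were log2 RMA signals of 21 single-colour arrays, 1 per probe set, and per the submitters' processing notes GCOS 1.2 and RMA made them. The sources used here give neither the RMA version nor whether all arrays went through 1 run. They were used without further scaling. The annotation left 10833 of 12488 probe sets with 1 gene (66 were array controls, 1193 had no annotation and 396 several genes), and Entrez identifiers gave 10817 of them a current symbol. The probe set with the highest mean stood for each of 8251 genes, and for 395 genes it was an _f_at set, which matches several related sequences.

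With limma 3.58.1 (R 4.3.3) a model with 1 mean for each of 9 groups was fitted over the 21 arrays (12 residual degrees of freedom, 20.1 after moderation). Tests were two-sided, adjusted by Benjamini-Hochberg over all 10833 probe sets and called at an adjusted p under 0.05. The chamber contrast is hypoxia minus control, and the difference contrast subtracts the mean of the same contrast in incubator experiments 1 and 2. Errors are standard errors of the model. The model was tested on simulated data.

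Genes were named by rule: the 12 highest and 12 lowest called changes, up to 6 members of each list with the largest absolute change, up to 8 stronger and 4 weaker differences in each direction, and a short fixed set. The members, lists and tests were chosen with earlier results of these data known. Lists were counted and not tested. Summed marker signals are sums of 2 to the power of each value. Alternatives were median centring, quantile normalization, leaving out probe sets under the 40th percentile, 1 probe set or their mean per gene, robust moderation with a variance trend, weights per array, other sets of arrays or controls, replicate number as a block, and leaving out each array. Promoter sequences are RefSeq's of GRCm38.p6, read from a table that held 6572 of the 8251 genes.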

Additional observations from a re-analysis of the deposited data

Results flagged for a closer look

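For 26 named genes the test of the difference between the chamber change and the mean change of the 2 incubator experiments passed the threshold, and each is given here as chamber minus incubator in log2 units. Among nucleolar and RNA genes these were Ftsj3 (-1.19), Snhg1 (-1.10), Nop58 (-1.04), Nifk (-1.03) and Nop56 (-0.71). Among stress response and folding genes they were Atf4 (-1.05), Nupr1 (-0.996), Herpud1 (-0.97), Hsph1 (-0.81) and Dnajc2, a ribosome-bound co-chaperone (-0.66). Srm (-0.64) and Nsmce4a (-0.96) also had a more negative change in the chamber. Among vascular and cytoskeletal genes the values were -1.27 for Adm, -1.10 for Vegfa, -1.15 for Vcl, -0.996 for Cnn2 and -0.69 for Gja1, and Plk2 stood at -1.11. A more positive change in the chamber was found for Plat (0.98), Mxd4 (0.93), Ache (0.84), Jun (0.81), Tmem71 (0.79), Ccnd2 (0.79), Nr4a1 (0.76) and Rgs11 (0.69). The call was lost without chamber control array 1 for 23 of the 26 and without chamber control array 2 for 24, and those 2 arrays also had the widest spread of signal among the arrays of the hypoxia sets. After quantile normalization of the arrays 19 of the 26 kept the call. It was lost for 7, which were Srm, Hsph1, Nop56, Ache, Atf4, Nupr1 and Nsmce4a. Over all genes 93 differences were then called, 26 more positive and 67 more negative. The part of that spread in these differences was not tested further.

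Of 1589 probe sets that the annotation assigns to no gene or to several genes, 77 were called higher and 102 lower in the chamber by the same limma model. They stand outside the counts of genes and are not named here.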

How the results depend on the processing

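Array weights and the arrays used in the fit moved the counts most. Against 1763 genes called for the chamber, array weights gave 4027 (2047 higher and 1980 lower). A fit of only the 5 chamber arrays gave 3546 (1684 and 1862), and with replicate number as a block 3565 (1683 and 1882). Rises and falls were thus closer in number under these settings than in the reported fit. For probe sets the reported count of 2067 stood against 4916, 4340 and 4396 under these settings and 3137 in a fit of the 15 arrays of the hypoxia sets. The difference between chamber and incubator, 118 genes, became 224 with median centring, 210 with probe sets under the 40th percentile left out, 178 with 1 probe set per gene, 1597 with array weights, 733 with only the 15 arrays and 890 in those arrays with replicate number as a block. Leaving out 1 array gave 859 to 1490 genes and 998 to 1748 probe sets for the chamber, and 4 to 127 genes for the difference. Normalization moved the split of the chamber calls by under 10 percentage points, to 445 higher and 1348 lower with median centring and to 641 and 987 with quantile normalization, and the median over all genes, 0.07, to 0.02 and 0.03. Same-numbered hypoxia and control arrays had residual correlations of -0.05 and -0.08, and the labels say only that they share a number, so the block is no evidence of pairing.

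No result changed its sign where called. Of 204 named genes called for the chamber, 152 kept the call under every alternative, and 45 of the other 52 lost it when an array was left out. Calls of named genes were lost for 18 with all 6 controls of the hypoxia sets pooled. Among them were Hif3a (limma adjusted p = 0.92), Nr4a1 (0.49), Pygb (0.42), Max (0.38), Angpt2 (0.12) and Eng (0.079). Calls were lost for 7 each with quantile normalization and with the mean of a gene's probe sets, and for 5 with median centring. Of 53 named genes not called, 40 were called under at least 1 alternative. The count of ribosome biogenesis genes lower, 41, ranged from 29 to 47 over the alternatives, that of replication genes lower, 36, from 31 to 38, that of amino acid genes lower, 27, from 18 to 29, and that of HIF targets higher, 19, from 17 to 21. Counts of smaller shifts were less stable, with 2 to 25 respiratory chain genes and 3 to 30 proteasome genes lower. In simulated arrays 100 of 10833 probe sets were changed by 0.5 log2 units and 100 by 1 unit. Of these 40% and 94% were recovered, so small changes can be missed. Many more probe sets were called in the real arrays (2067), where the Benjamini-Hochberg cutoff is less strict. The simulated shares therefore do not give the recovery in these data. Detection above background was not assessed, and dim or very bright probe sets compress a change.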

Other observations

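Some smaller families were picked out after their values were seen, so their counts are a description. Of 8 subunits of the cytosolic chaperonin, which folds actin and tubulin, 5 were lower, with a median change of -0.41 in the chamber, beside 0.08 in experiment 1 and -0.11 in experiment 2. Of 8 serine-arginine splicing proteins 5 were lower, with a median of -0.62 in the chamber, -0.59 in experiment 1 and -0.35 in experiment 2. The 15 aminoacyl-tRNA synthetase genes had a median of -0.60 in the chamber, 0.12 in experiment 1 and -0.32 in experiment 2. For the 6 MCM helicase genes the medians were -0.98, -0.52 and -0.96 in the same order.

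Among genes called lower in the chamber 11 were called higher in incubator experiment 1 and 1 in experiment 2. Among genes called higher in the chamber 4 were called lower in experiment 1 and 1 in experiment 2. Promoters of the HIF target list held ACGTG or GCGTG in 17 of 20 cases (85.0%), and those of the ribosome biogenesis list in 37 of 46 (80.4%), beside 59.1% of all tested genes. Within the ribosome biogenesis list 23.9% of promoters held the E-box CACGTG, beside 9.95% over all tested genes.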
